A study of Mus musculus with 18 samples.

Results

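Bhlhe40 and 9 genes of the circadian clock (Bhlhe41, Nr1d1, Nr1d2, Per1, Per2, Cry1, Clock, Dbp and Tef) were examined in splenic regulatory T cells (Tregs) of mice with and without the chromatin remodeler CHD8. These 10 genes were taken by name from the 35869 names of the RNA-seq table, and all 10 were listed. For RNA-seq, YFP+ cells were sorted from the CD4+ T cells of the spleen, with 1 library from each of 2 WT mice and 2 Chd8-/- mice. The genotype given for the Chd8-/- libraries was CHD8Flox/FloxFoxp3YFP-Cre, in which a YFP-Cre fusion made from the Foxp3 locus deletes floxed Chd8 in Foxp3-expressing cells. The WT libraries were labelled CHD8flox/floxFoxp3YFP-Cre/+ whereas the methods describe the controls as WT littermates, so the samples were grouped by the W or K of their titles. Spleen, Treg cells and a Poly IC injection were given for every sample. Per the methods, the genotypes compared were littermates of the same sex at an age of 5 to 7 weeks. The time of day of collection was not given in the sources used here, and the part of the hour of collection in any clock gene value was not tested.

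The clock is a feedback loop of transcription. CLOCK and its partner BMAL1 (Arntl) bind E-boxes, short DNA elements with the letters CACGTG, and drive Per, Cry, Nr1d1, Nr1d2, Dbp, Tef and Bhlhe40. PER and CRY proteins repress CLOCK and BMAL1, the REV-ERB receptors made from Nr1d1 and Nr1d2 repress Arntl, and BHLHE40 (DEC1) and BHLHE41 (DEC2) are repressors that occupy E-boxes. In T cells, BHLHE40 is also known as an activation-induced factor that affects cytokine genes.

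The letters searched for were CACGTG, the related E-prime box CACGTT or its complement AACGTG, the core AGGTCA of REV-ERB and ROR elements, and the D-box bound by DBP and TEF in the forms TTATGTAA and TTACGTAA, each on both strands. The search covered the 250 bases before each annotated start in the RefSeq promoter table (GRCm38.p6), which held 12 promoters for 8 of the 10 genes (Bhlhe41, Nr1d1, Nr1d2, Per1, Cry1, Clock, Dbp and Tef). Alternative promoters of 1 gene are separate entries, and 2 of the 3 of Clock overlap. CACGTG was found in 5 of the 12 promoters and in 6.02% of all 32851 promoters. The E-prime box was found in 2 of the 12 and in 3.85% of all, AGGTCA in 3 of the 12 and in 14% of all, and a D-box in 0 of the 12 and in 0.931% of all. The 5 promoters with CACGTG belonged to Bhlhe41, Cry1, Per1 and both starts of Tef. The Per1 promoter with CACGTG (chr11:69098699-69098948) lies within the span of the gene given below. The start from which its window is counted is thus not the 5' end of Per1. The other Per1 promoter (chr11:69099902-69100151) held no CACGTG. A match is a description of the letters and not of binding. The windows below hold each E-box or E-prime box, in capitals, with 12 bases on either side, and are shown because they are the elements that BHLHE40 and CLOCK are known to share.

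Per1, chr11:69098771-69098800, + strand, E-box beginning 166 bases before the start: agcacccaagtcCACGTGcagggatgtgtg
Cry1, chr10:85185097-85185126, - strand, E-box beginning 60 bases before the start: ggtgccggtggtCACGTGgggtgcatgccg
Cry1, chr10:85185116-85185145, - strand, E-prime box beginning 79 bases before the start: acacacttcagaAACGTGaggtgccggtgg
Nr1d1, chr11:98775388-98775417, - strand, E-prime box beginning 28 bases before the start: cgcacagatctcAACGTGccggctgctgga
Tef, chr15:81802534-81802563, + strand, E-box beginning 127 bases before the upstream start: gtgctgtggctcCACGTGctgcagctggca
Tef, chr15:81811264-81811293, + strand, E-box beginning 138 bases before the downstream start: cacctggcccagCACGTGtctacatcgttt
Bhlhe41, chr6:145865556-145865585, - strand, E-box beginning 153 bases before the start: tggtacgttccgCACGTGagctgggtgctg

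Cry1 and Nr1d1, 1 from each side of the loop's repressors, are also shown with all 250 bases before the start (chr10:85185055-85185304 and chr11:98775378-98775627, both on the - strand). In Cry1 the E-prime box and the E-box lie close together near the start, and in Nr1d1 the single E-prime box is next to it.
Cry1: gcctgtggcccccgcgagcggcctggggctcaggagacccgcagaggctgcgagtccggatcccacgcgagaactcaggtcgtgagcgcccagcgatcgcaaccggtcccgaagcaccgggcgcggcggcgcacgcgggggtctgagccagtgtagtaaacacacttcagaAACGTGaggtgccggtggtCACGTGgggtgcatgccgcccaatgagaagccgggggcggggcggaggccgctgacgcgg
Nr1d1: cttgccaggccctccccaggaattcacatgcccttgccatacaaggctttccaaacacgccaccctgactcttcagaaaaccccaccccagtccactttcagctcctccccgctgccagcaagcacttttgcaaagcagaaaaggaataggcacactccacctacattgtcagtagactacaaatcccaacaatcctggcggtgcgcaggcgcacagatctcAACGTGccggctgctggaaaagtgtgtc

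The values were TPM, which is scaled by gene length and library total, so levels can be set side by side between genes. Comparing TPM with exon lengths showed the step that 1 read adds, which gave about 9225000 to 13170000 reads per library over genes with a known length and the approximate reads behind each value. The intervals these reads imply cover counting error only. The targeted gene Chd8 was listed at 14.9 and 11.4 TPM in the Chd8-/- libraries and at 24.7 and 27.6 TPM in the WT libraries, so that transcript remained detectable. Foxp3, which defines Tregs, was at 203 to 232 TPM in all 4 libraries and the summed 7 Treg markers were at 3342 to 4006 TPM. Chd8-/- replicate 2 stood apart in markers of other cells. Its summed erythroid markers (5 genes) were at 1982 TPM against 0.7 TPM in Chd8-/- replicate 1 and 370 and 330 TPM in WT, and its summed myeloid markers (7 genes) were at 1460 TPM against 27.9, 152 and 123 TPM. Its 5 B cell markers summed to 140 TPM against 29.7 to 43.8 TPM in the other libraries. In Chd8-/- replicate 1 the globin genes Hbb-bs, Hbb-bt and Hba-a2 and the myeloid genes Adgre1, Cd14 and Itgax were at 0. The 6 CD8 and NK cell markers summed to 52.8 to 93.4 TPM over the 4 libraries. The part of these cells in the values below was not tested, and the difference of each Chd8-/- library from WT is given beside the results in which they part. Xist was at 500 to 843 TPM and the Y-linked genes Ddx3y, Eif2s3y, Kdm5d and Uty were at 0 in all 4 libraries, although the study describes a male and a female mouse of each genotype.

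Bhlhe40 was the most abundant of the 10 genes in both genotypes and stood higher in both Chd8-/- libraries than in both WT libraries. It lies at chr6:108660629-108666925 on the + strand (GRCm38). It was listed at 155 and 131 TPM in the Chd8-/- libraries, from about 3248 and 2147 reads, and at 47 and 52.5 TPM in the WT libraries, from about 712 and 843 reads. The means were 143 ± 17.0 TPM (SD, n = 2) and 49.8 ± 3.89 TPM (SD, n = 2), a ratio of 2.87. Counting error was at most 3.75% of any of these values. On the log2(TPM + 1) scale the difference was 1.50 (SE 0.206). By limma with a mean-variance trend over 15240 genes, two-sided, the unadjusted p was 0.00137 and the Benjamini-Hochberg adjusted p was 0.373, so Bhlhe40 did not pass an adjusted p of 0.05. None of the 15240 genes did (0%), while 3.9% were higher and 6.3% were lower in Chd8-/- Tregs at an unadjusted p under 0.05. With 2 libraries a side, the smallest p of an exact permutation test would be 0.333.

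Ratios within a library, which do not depend on the library totals, were taken next. Relative to Foxp3 in the same library, Bhlhe40 was at 66.8 and 63.8% in Chd8-/- Tregs and at 23.2 and 24.4% in WT Tregs. Relative to Cd3e, a subunit of the T cell receptor complex, it was at 11.8 and 10.3% against 3.04 and 3.44%. Both ratios separated the genotypes as the TPM did. Against WT the log2 difference was 1.62 for Chd8-/- replicate 1, in which erythroid and myeloid markers were low, and 1.38 for Chd8-/- replicate 2, in which they were high. Over the 11 alternative settings it lay between 1.38 and 1.62, with adjusted p between 0.168 and 1. Bhlhe40 shares 118 nt of exon (3.79% of its length) with 0610040F04Rik on the opposite strand, and strand was not stated for the counting. That neighbour was at 9.8 and 12 TPM in Chd8-/- and 2 and 2.4 TPM in WT libraries, so its reads and those of Bhlhe40 cannot be told apart in the shared stretch. Bhlhe41, the paralog of Bhlhe40 (chr6:145858243-145865420, - strand), was at 0 and 0.2 TPM in Chd8-/- and 0.1 and 0.1 TPM in WT libraries. These values rest on at most about 6 reads, and no difference was detectable at this depth.

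**Figure D1:**
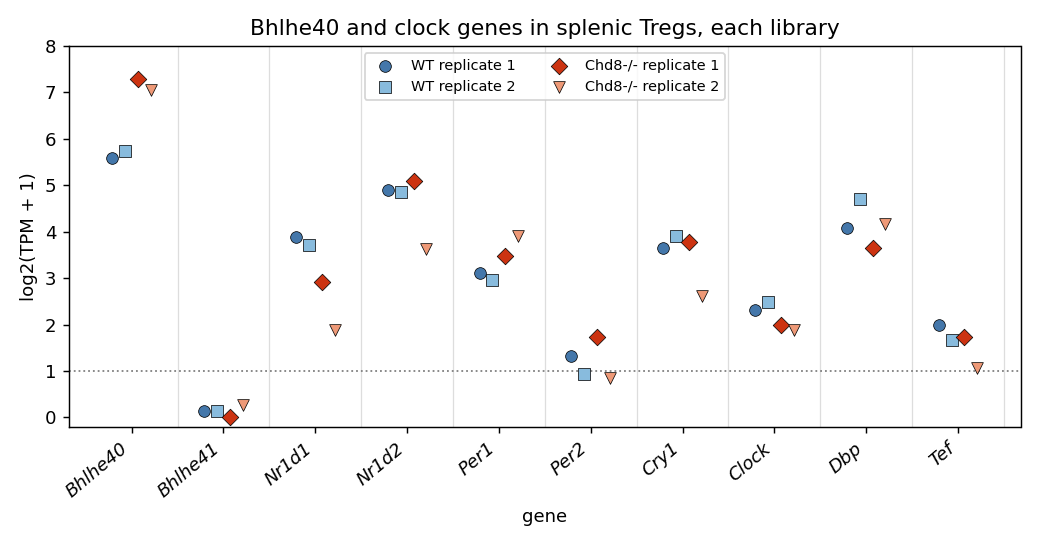
Levels of Bhlhe40 and 9 clock genes as log2(TPM + 1) in each of the 4 RNA-seq libraries (y axis; 1 point per library, genes on the x axis, dotted line at 1 TPM). The Chd8-/- points of Bhlhe40 lie above its WT points and those of Nr1d1 lie below, while Chd8-/- replicate 2 lies far below the other 3 libraries in Nr1d2 and Cry1.

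The plot of levels by library shows that the WT libraries lay close together in most genes, while the Chd8-/- libraries parted in several. Over all 15240 genes the median absolute difference in log2 units was 0.52 for the Chd8-/- pair of libraries and 0.32 for the WT pair. In bulk RNA, fewer cells of a type and less RNA per cell cannot be told apart.

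Among the repressors of the loop, Nr1d1, the gene of REV-ERB alpha, was the lowest relative to WT. It lies at chr11:98767932-98775377 on the - strand. It was listed at 6.5 and 2.7 TPM in the Chd8-/- libraries, from about 121 and 39 reads, and at 13.8 and 12.2 TPM in the WT libraries, from about 186 and 174 reads. Both Chd8-/- values were below both WT values. The means were 4.60 ± 2.69 TPM (SD, n = 2) and 13.0 ± 1.13 TPM (SD, n = 2), so the WT mean was 2.83 times the Chd8-/- mean. The log2 difference was -1.41 (SE 0.480), with an adjusted p of 0.471 by limma, and it did not pass the threshold. It was -0.90 for Chd8-/- replicate 1 alone and -1.92 for replicate 2 alone. Relative to Cd3e, Nr1d1 was at 0.496 and 0.213% in Chd8-/- against 0.891 and 0.798% in WT libraries. The gene shares 471 nt of exon (17% of its length) with Thra on the opposite strand, which was at 5.7 and 3.8 TPM in Chd8-/- and 8.4 and 11 TPM in WT libraries.

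Nr1d2, the gene of REV-ERB beta (chr14:18204056-18239106, - strand), parted between the Chd8-/- libraries. It was listed at 32.9 and 11.4 TPM in the Chd8-/- libraries and at 28.6 and 28.1 TPM in the WT libraries, from about 279 to 1028 reads. The first Chd8-/- value was above both WT values and the other was below them. The log2 difference was -0.52 (adjusted p = 0.775 by limma), and it was 0.21 for Chd8-/- replicate 1 and -1.24 for replicate 2. Within a library the ratio of Nr1d1 to Nr1d2 was 0.198 and 0.237 in Chd8-/- Tregs and 0.483 and 0.434 in WT Tregs. This ratio did not overlap between genotypes, although Nr1d2 itself did.

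Per1 stood on the other side from Nr1d1. Per1 (chr11:69095108-69109965, + strand) codes for a PERIOD repressor and is also induced directly by glucocorticoids and cAMP. It was listed at 10.2 and 14.1 TPM in the Chd8-/- libraries and at 7.6 and 6.8 TPM in the WT libraries, from about 301 to 636 reads. The genotypes did not overlap, with means of 12.2 ± 2.76 TPM and 7.2 ± 0.566 TPM (SD, n = 2 each). The log2 difference was 0.67 (SE 0.348), with an adjusted p of 0.585 by limma. It was 0.45 for Chd8-/- replicate 1 and 0.88 for replicate 2. Within a library, the ratio of Per1 to Nr1d1 was 1.57 and 5.22 in Chd8-/- Tregs and 0.551 and 0.557 in WT Tregs, so that Per1 was above Nr1d1 in both Chd8-/- libraries and below it in both WT libraries.

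The other repressor genes gave no separation. Per2 (chr1:91415977-91459351, - strand) was at 2.3 and 0.8 TPM in Chd8-/- and 1.5 and 0.9 TPM in WT libraries, from about 25 to 93 reads, and its counting error reached 19.9%. It shares 698 nt of exon (11.6%) with Gm35591 on the opposite strand. Its log2 difference was 0.16 (adjusted p = 0.934 by limma), with 0.60 for Chd8-/- replicate 1 and -0.28 for replicate 2. Cry1, the cryptochrome gene with the paired elements printed above (chr10:85131700-85185054, - strand), was at 12.7 and 5.1 TPM in Chd8-/- and 11.5 and 14.1 TPM in WT libraries. Chd8-/- replicate 1 lay within the WT range and replicate 2 lay below it. The log2 difference of Cry1 was -0.59 (adjusted p = 0.725 by limma), made of -0.0041 for Chd8-/- replicate 1 and -1.17 for replicate 2.

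Clock, the activator, was a little lower in Chd8-/- Tregs. It lies at chr5:76209868-76305603 on the - strand and had values of 3 and 2.7 TPM in Chd8-/- and 4 and 4.6 TPM in WT libraries, from about 155 to 259 reads. These ranges did not overlap, and the Chd8-/- libraries differed from the WT mean by similar amounts, -0.40 and -0.52 in log2 units. The fitted difference was -0.46 (adjusted p = 0.713 by limma), and it was -0.15 after quantile normalization. The ratio of Bhlhe40 to Clock in the same library was 51.7 and 48.5 in Chd8-/- and 11.8 and 11.4 in WT libraries. Clock shares 652 nt of exon (5.98%) with Gm7467 on the opposite strand. That gene was at 0.9 and 0 TPM in Chd8-/- and 0 and 0 TPM in WT libraries.

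The output genes Dbp and Tef code for PAR bZIP factors that bind D-boxes. Dbp (chr7:45705100-45710203, + strand) was at 11.5 and 17 TPM in Chd8-/- and 16 and 24.9 TPM in WT libraries, with a log2 difference of -0.48 (adjusted p = 0.700 by limma). It was -0.75 for Chd8-/- replicate 1 and -0.22 for replicate 2. The WT libraries alone spanned 0.61 in log2 units for Dbp, and 539 nt of its exons (21.4%) are shared with Sphk2 on the opposite strand. Tef (chr15:81802673-81826863, + strand) was at 2.3 and 1.1 TPM in Chd8-/- and 3 and 2.2 TPM in WT libraries, with a log2 difference of -0.44 (adjusted p = 0.773 by limma), and here replicate 1 was the nearer to WT (-0.12) and replicate 2 the farther (-0.77). Both genes overlapped between genotypes.

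In WT Tregs the order of mean levels was Bhlhe40, Nr1d2 (28.4 TPM), Dbp (20.5 TPM), Nr1d1, Cry1 (12.8 TPM), Per1, Clock (4.30 TPM), Tef (2.6 TPM), Per2 (1.20 TPM) and Bhlhe41 (0.1 TPM). Nr1d1 and Cry1 were the only neighbours in that order whose WT libraries overlapped. In Chd8-/- Tregs Bhlhe40 kept the first place and Nr1d1 moved from rank 4 to rank 6, while Per1 moved from rank 6 to rank 4. From Nr1d2 down to Clock, each pair of neighbours overlapped between the Chd8-/- libraries. Bhlhe40 made up 65.6 and 70.4% of the summed TPM of the 10 genes in the Chd8-/- libraries and 35.3 and 35.9% in the WT libraries. Without Bhlhe40 the other 9 genes summed to 81.4 and 55.1 TPM in Chd8-/- and to 86.1 and 93.9 TPM in WT libraries, so both Chd8-/- sums were below both WT sums.

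Of the 10 genes, 9 passed the filter of at least 1 TPM in 2 or more libraries and Bhlhe41 did not. Of these 9, 0 passed the adjusted p, and at an unadjusted p under 0.05 1 was higher (Bhlhe40) and 1 was lower (Nr1d1). The libraries did not overlap for 2 higher genes (Bhlhe40 and Per1), against 14.8% of all genes, and for 2 lower genes (Nr1d1 and Clock), against 27.8% of all genes. A log2 difference of at least 1 without overlap was met by 1 higher gene, against 4% of all genes, and by 1 lower gene, against 9.05%. No count here sets the 9 genes apart from all genes. In all, 3 of the 9 were higher and 6 were lower, with a median log2 difference of -0.46 beside -0.15 over all genes. After quantile normalization the median of all genes was 0.00 and that of the 9 genes was -0.15, again with 3 higher and 6 lower. Without Chd8-/- replicate 2 the median of the 9 genes was -0.0041, with Bhlhe40 at 1.62 and Nr1d1 at -0.90. Without Chd8-/- replicate 1 Bhlhe40 was at 1.38, and Nr1d1, Nr1d2 and Cry1 were at -1.92, -1.24 and -1.17.

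**Figure D2:**
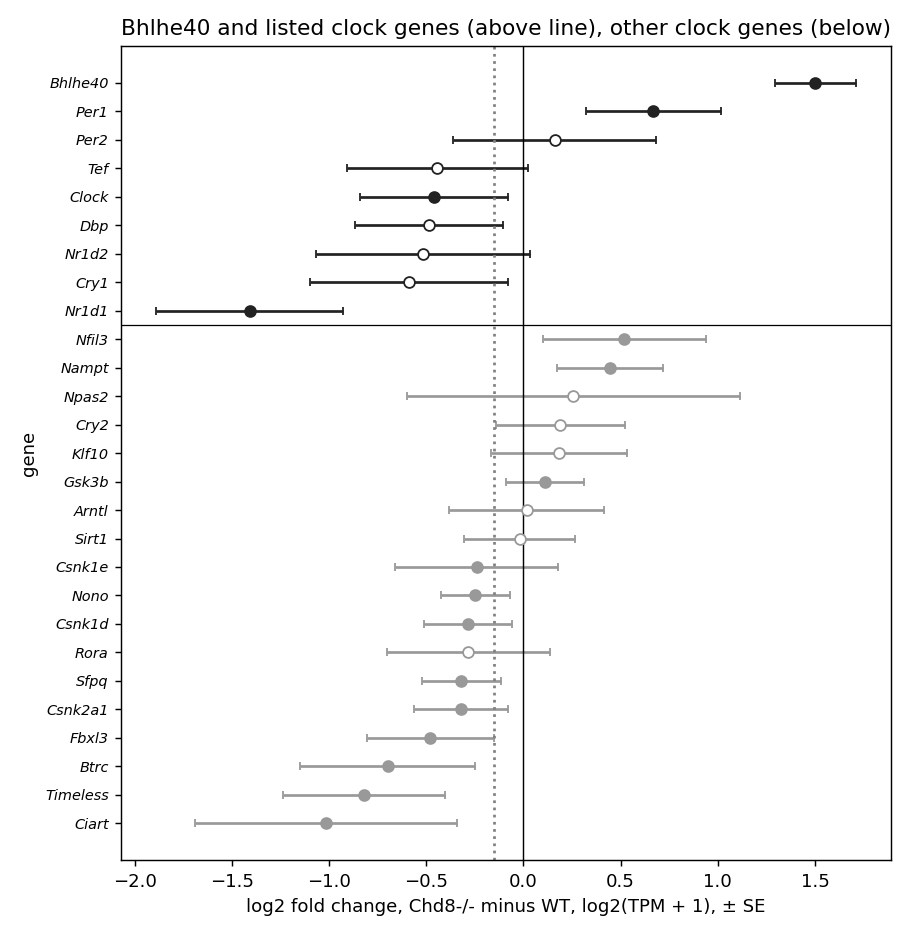
Log2 fold change between Chd8-/- and WT Tregs on the log2(TPM + 1) scale (x axis; bars are the SE of the limma fit) for the 9 tested genes above the line and 18 other clock genes below it (y axis). Filled points are genes whose libraries did not overlap and the dotted line is the median of all genes, -0.15. Bhlhe40 (1.50) and Nr1d1 (-1.41) lie farthest from 0.

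A further 25 clock genes were taken as the rest of the pathway, and 19 passed the filter. None passed the adjusted p (0 of 19) and 0 had an unadjusted p under 0.05 by limma. Of the 19, 7 were higher and 12 lower, with a median log2 difference of -0.25, and 3 higher and 10 lower genes did not overlap, where the shares over all genes were 14.8% and 27.8%. After quantile normalization 9 were higher and 10 lower, of which 4 and 5 did not overlap, beside 3196 and 3242 of all 15240 genes. Arntl, the gene of BMAL1 and the target of the REV-ERB receptors, was at 4 and 4.2 TPM in Chd8-/- and 3.3 and 4.9 TPM in WT libraries, a log2 difference of 0.02 (adjusted p = 0.992 by limma). In the fold change plot Arntl lies close to the zero line and Nr1d1, whose protein is a known repressor of it, lies at -1.41. A relation between the 2 genes was not tested. Ciart, a repressor of CLOCK and BMAL1, was at 3.5 and 0.5 TPM against 3.6 and 5 TPM. Its log2 difference was -1.02 (adjusted p = 0.656 by limma), and it was nearer to WT in Chd8-/- replicate 1 (-0.22) than in replicate 2 (-1.81). Nfil3, a repressor that competes with DBP at D-boxes, was at 5.9 and 9.1 TPM against 5.8 and 4 TPM, a log2 difference of 0.52 (0.24 for Chd8-/- replicate 1 and 0.79 for replicate 2). Timeless differed by -0.82, Btrc, a ubiquitin ligase subunit acting on PER, by -0.70, and Nampt, the enzyme of NAD+ synthesis with a rhythmic output, by 0.44. Arntl2 and Rorb were at 0 in all libraries, and Per3, Hlf, Fbxl21 and Usp2 did not pass the filter.

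**Figure D3:**
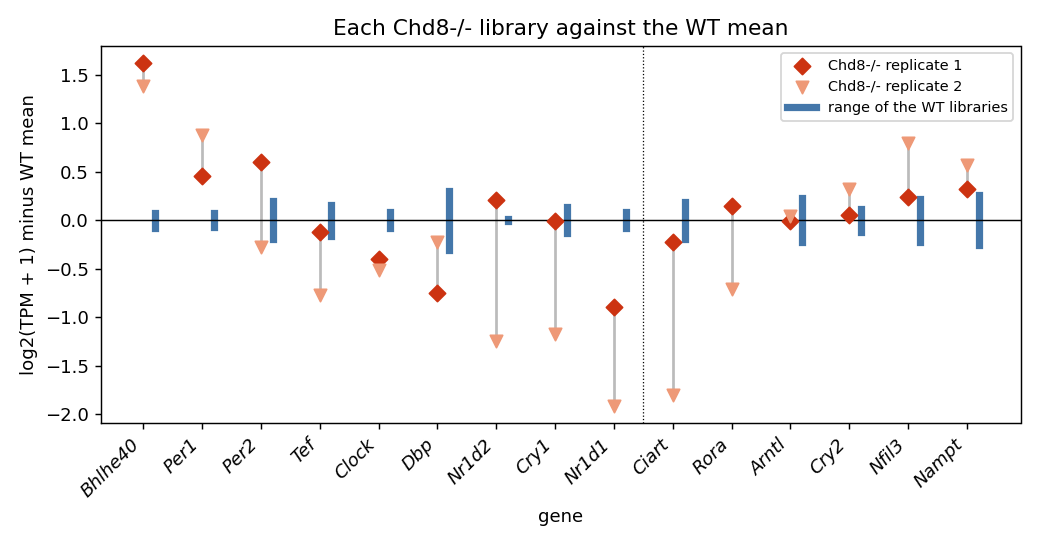
Difference of each Chd8-/- library from the WT mean in log2(TPM + 1) (y axis) for the 9 tested genes and, right of the dotted line, 6 other clock genes (x axis), with blue bars for the range of the WT libraries. In Bhlhe40, Per1, Clock and Nr1d1 both Chd8-/- libraries lie on 1 side of the WT range, whereas in Nr1d2, Cry1 and Ciart only replicate 2 lies far below it.

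Setting each Chd8-/- library against WT parted the genes by how the replicates behaved. Bhlhe40, Per1, Clock and Nr1d1 lay outside the WT range on the same side in both Chd8-/- libraries. Nr1d2, Cry1 and Rora differed by 0.21, -0.0041 and 0.14 in Chd8-/- replicate 1 and by -1.24, -1.17 and -0.71 in replicate 2, the library with the high erythroid and myeloid markers. The Nr1d2 to Cd3e ratio was 2.51 and 0.9% in Chd8-/- and 1.85 and 1.84% in WT libraries, and the Cry1 to Cd3e ratio was 0.969 and 0.403% against 0.743 and 0.923%. In both ratios, as in TPM, Chd8-/- replicate 2 was the lowest of the 4 libraries.

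Lists of inputs and targets known for these genes were read the same way. Of 5 cytokine and receptor genes that BHLHE40 is known to act on in T cells, 2 passed the filter and both overlapped. Il10 was at 3.8 and 1.7 TPM in Chd8-/- and 2.8 and 19.4 TPM in WT libraries, and Ifng was at 8 and 6.6 TPM against 9.3 and 2.9 TPM. The WT libraries thus differed more from each other than the genotypes did. Bhlhe40 is itself a hypoxia-induced gene, and of 14 hypoxia genes 12 were tested, 9 were higher and 3 lower, with a median log2 difference of 0.24 and 6 higher genes without overlap, beside 14.8% of all genes. None passed the adjusted p by limma, and 2 were higher at an unadjusted p under 0.05, beside 3.9% of all genes. These were Pgk1, a glycolytic enzyme, at 0.84 (adjusted p = 0.403), and Ero1l, an oxidase of protein folding, at 1.00 (adjusted p = 0.403). Ndrg1 was at 1.34 (adjusted p = 0.551), which moved to 2.04 without WT replicate 1 (14.1 TPM) and to 0.64 without WT replicate 2 (4.7 TPM). Of 8 glucocorticoid response genes 6 were tested and 0 passed. Of the 6, 4 were higher and 2 lower with a median log2 difference of 0.36, which turned to -0.23 without Chd8-/- replicate 1. Klf9, a factor induced by glucocorticoids and tied to the clock, was at 6 and 1.2 TPM in Chd8-/- against 19.9 and 13.3 TPM in WT libraries (log2 difference -2.14, adjusted p = 0.462 by limma). It was -1.30 for Chd8-/- replicate 1 and -2.97 for replicate 2. Of this list, 3 higher genes did not overlap, beside 14.8% of all genes, and 1 lower gene, Klf9, beside 27.8%. The 3 were Per1, itself 1 of the 10 genes, Fkbp5 (0.60) and Dusp1 (0.64). Of 10 immediate early genes 9 were tested and 0 passed, with 6 higher, 3 lower and a median log2 difference of 0.07. The median was 0.53 without Chd8-/- replicate 1 and -0.07 without Chd8-/- replicate 2. In this list 4 higher genes did not overlap, beside 14.8% of all genes, and 2 lower genes, beside 27.8%. Jun was at 20.1 and 29.3 TPM in Chd8-/- libraries against 4.7 and 10.4 TPM in WT libraries, with a log2 difference of 1.65 (adjusted p = 0.446 by limma), while Fos and Egr1 differed by 0.00 and 0.07.

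By Euclidean distance between log2(TPM + 1) values centred over the 4 libraries, the genes most like Bhlhe40 among 8790 with a mean of at least 10 TPM were Gm3317, Ces2c, Naip6, Il1r2 and Gm3173. Il1r2, the decoy receptor of interleukin 1, was at 26.2 and 19.7 TPM in Chd8-/- and 8.1 and 9.1 TPM in WT libraries. Of the 9 clock genes, 3 (Nr1d2, Cry1 and Dbp) had a mean of at least 10 TPM and could be placed, and none of the 3 was among these 5. This follows from their negative log2 differences given above, since the distance includes the difference between genotypes.

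CHIP-seq with an antibody against CHD8 in Tregs of 2 WT mice held a peak at Bhlhe40. The peak, chr6:108636304-108636888 in mm39 and 585 bases long, is given to exon 1 of Bhlhe40 by the peak annotation that accompanies the study. Its values were 149.4 and 108.6 TPM over peaks, beside table medians of 140 and 133 TPM, and its mean was above 38.8% of the 6971 peaks. IgG values were not analysed here, so no enrichment is given, and it was the single CHD8 peak within 50 kb. Gene starts in mm39 were not used here, so the other 9 genes were not examined in the CHIP and ATAC tables.

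**Figure D4:**
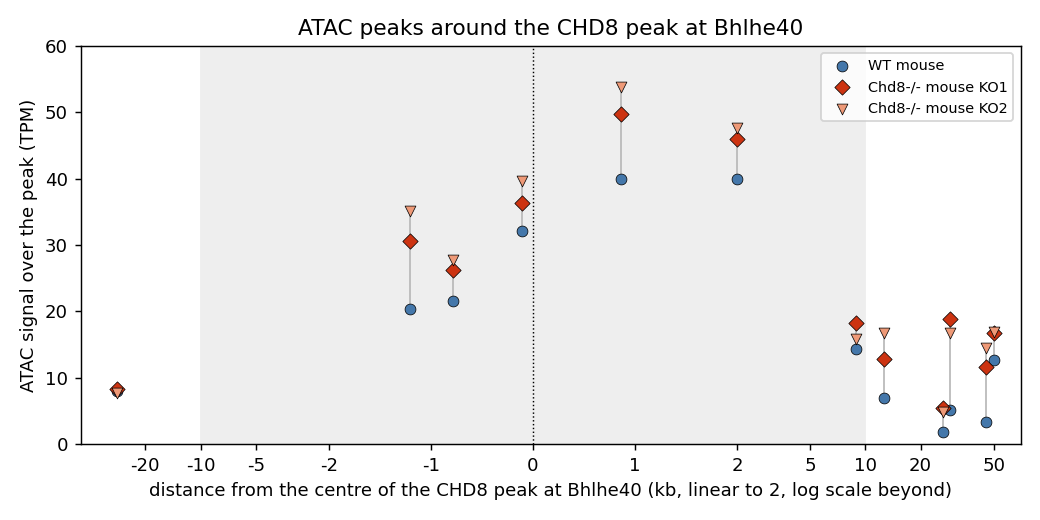
ATAC signal in TPM over each peak (y axis) by distance from the centre of the CHD8 peak at Bhlhe40 (x axis in kb, linear up to 2 kb and logarithmic beyond; grey area is 10 kb on either side) in 1 WT and 2 Chd8-/- mice. Both Chd8-/- mice lie above the WT mouse at every peak but the one at -28.7 kb, where the 3 mice lie between 7.7 and 8.3 TPM.

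ATAC-seq, which measures open chromatin, was available for 1 WT and 2 Chd8-/- mice, so no test was possible and the values are a description. All 6 ATAC peaks within 10 kb of the CHD8 peak were higher in both Chd8-/- mice than in the WT mouse. The peak that overlaps the CHD8 peak (chr6:108636132-108636850) was at 32.1 TPM in WT and at 36.4 and 39.7 TPM in Chd8-/- mice, a log2 change of 0.24. The next peak at higher coordinates (chr6:108636954-108637962) was at 40 TPM against 49.8 and 53.8 TPM, a log2 change of 0.37. A peak at lower coordinates (chr6:108635282-108635505) was at 20.4 TPM against 30.6 and 35.2 TPM, a log2 change of 0.67. The changes of the 6 peaks lay between 0.22 and 0.67 with a median of 0.27, beside 0.02 over all 81800 peaks. Only the last of these, 1 of 6, was past a log2 change of 0.4, which 17.6% of all peaks passed as higher and 9.67% as lower.

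Farther away, between 12.7 and 45.3 kb from the centre of the CHD8 peak toward higher coordinates, 4 weaker peaks had larger ratios. The peak at 28.9 kb (chr6:108665192-108665892) was at 5.2 TPM in WT and at 18.9 and 16.7 TPM in Chd8-/- mice, and that at 45.3 kb (chr6:108681714-108682092) was at 3.4 TPM against 11.6 and 14.5 TPM. The mean of the Chd8-/- mice was 3.42 and 3.84 times the WT value. The peaks at 12.7 and 26.5 kb were at 7 TPM against 12.8 and 16.7 TPM and at 1.8 TPM against 5.4 and 4.8 TPM. Within 50 kb, 5 of 12 peaks were past a log2 change of 0.4 as higher and 0 as lower. These distal peaks were given to no gene here.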

How the data were processed

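For RNA-seq the authors trimmed reads, aligned them to mm10 with STAR, counted them on RefSeq genes with featureCounts and deposited the values as TPM, rounded to 0.1. The submitters' processing notes name STAR 2.6.1e and featureCounts 1.6.2. Reads of the ATAC-seq and CHIP-seq libraries were aligned to mm39 with HISAT2 and peaks were called with MACS2, and the authors deposited TPM over the union of peaks, 1 column per mouse. The labels name both a 10X assay and an Illumina RNA-seq kit for the RNA libraries. Strand of the counting was not given in the sources used here.

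RNA values were compared as log2(TPM + 1) for the 15240 of 35865 genes (names listed once) with at least 1 TPM in 2 or more libraries, with limma 3.58.1 in R 4.3.3 (eBayes with trend, Benjamini-Hochberg over these genes). A fold change on this scale understates that of low genes. Reads per value were found from the step of 1 read in short genes, where 98.3 to 99.5% of low values were whole multiples within 0.15 of a read. Each library is 1 mouse, and with 2 mice a group the p-values rest on a variance partly shared over genes. ATAC values were compared as log2(TPM + 0.84), the added value being 0.1 of the median. The window around the CHD8 peak was chosen after seeing the data, because gene starts in mm39 were not used. The step of 1 read, the limma fit and the ATAC comparison were each tested on simulated data. The ATAC simulation was made without the added value and not at low values, so it does not cover the weak peaks. Tables were handled with Python 3.11.15, pandas 2.3.3 and numpy 2.4.6, and figures with matplotlib 3.10.9.

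Named genes are the 10 genes, the other clock genes past the filter by value or range, genes of 4 lists where the list is described, Chd8, and the 5 genes nearest to Bhlhe40. Values of 1 of the other clock genes are counted with its list and not reported here. The 10 genes and the lists were chosen with earlier results of these data known. Alternatives were pseudocounts of 0.1 and 5 TPM, no filter, a mean of at least 5 TPM, a replicate block, eBayes without trend, quantile normalization and each replicate left out.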

Additional observations from a re-analysis of the deposited data

How the results depend on the processing

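With 2 mice per genotype, no alternative brought any of the 10 genes or the 19 other clock genes past an adjusted p of 0.05 in limma (range of adjusted p for Bhlhe40 0.168 to 1). Bhlhe40 lay between 1.38 and 1.62 in log2 units and Nr1d1 between -1.92 and -0.90 over 11 alternatives each. Of 254 alternative values, 244 were classed as unchanged. Fold changes were classed by sign and side of the threshold, counts by a fixed ratio and medians by the spread. No gene passed the threshold in the main comparison, so none could lose it. The filters, the replicate block and eBayes without trend cannot change a fold change, so for these its sign was fixed in advance. The 244 thus include values that could not differ in sign. Size was not part of the class for fold changes, and Cry1 went from -0.59 to -0.0041 without Chd8-/- replicate 2. Leaving out Chd8-/- replicate 2 turned Nr1d2 from -0.52 to 0.21, and leaving out WT replicate 2 turned Per2 from 0.16 to -0.037. With a replicate left out, Nr1d2 ranged from -1.24 to 0.21 and Per2 from -0.037 to 0.60 in the 2 of 4 fits in which it passed the filter (-0.28 for Chd8-/- replicate 2 against the WT mean). The count of genes past a log2 difference of 1 without overlap, 2 above, was 1 with a pseudocount of 5 TPM. Without Chd8-/- replicate 1 Nr1d2 and Cry1 lay at -1.24 and -1.17, and without Chd8-/- replicate 2 Nr1d1 lay at -0.90. The median of the tested genes lay between -0.64 and -0.0041 with a replicate left out. The causes were not tested. Over all genes, 0 passed the adjusted p above, 2 did among genes with a mean of at least 5 TPM and 415 did with no filter, none of the 10 genes among them.

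The replicate numbers of the labels were not known to pair mice: the correlation of the differences between replicates across 15240 genes was -0.01 between the genotypes. With 1 library of each genotype per block, the replicate block cannot change a log2 difference, which stayed at 1.50 for Bhlhe40. The adjusted p of Bhlhe40 with the block was 0.552 by limma, and 0 of the 9 genes were called.

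Near the CHD8 peak of Bhlhe40, the count of ATAC peaks past the cutoff was 1 of 6. It was 2 after ATAC quantile normalization, between 1 and 2 with 1 Chd8-/- mouse left out, 0 at a log2 cutoff of 1 and 5 within 50 kb. The ATAC and CHD8 peaks near the starts of all 10 genes were planned and not run, because gene starts in mm39 were not used here. Counts of at most about 93 reads limit Per2, and of at most about 6 reads Bhlhe41.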
